A study of Arabidopsis thaliana with 12 samples.

Results

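The red light response of wild type seedlings was read from 6 of the 12 libraries of the study, the 3 from Col-0 seedlings given red light and the 3 from Col-0 seedlings kept in the dark. They were chosen by genotype and treatment in the labels, with no measured value used, and every gene in the table was considered. All seedlings were Arabidopsis thaliana, kept cold as seeds for 3 days, germinated with 3 h of white light (25 µmol m-2 s-1), and grown for 4 days in darkness at 22 °C on medium without sucrose. The first group then stood for 1 h under continuous red light (8 µmol m-2 s-1), and the other stayed in the dark. The other 6 libraries came from the b''ab''b double mutant, named after B''α and B''β of protein phosphatase 2A, under the same treatments. They entered the fit for its estimate of spread. RNA was total RNA of whole seedlings, so fewer cells of a type and less RNA per cell cannot be told apart. No label states that the replicates were grown apart, so a p-value reflects the spread among these libraries, and that spread may be technical.

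Red light is sensed by phytochromes, which turn active on absorbing it, move into the nucleus and bring about the breakdown of phytochrome-interacting factors (PIFs), bHLH proteins that hold a dark-grown seedling in its elongated, pale form. The bZIP factor HY5 and many B-box (BBX) proteins then act on the same promoters, often at the G-box, a palindrome bound by bHLH and bZIP factors alike. Stem elongation slows, the apical hook opens, cotyledons expand and chloroplasts are built, which calls on metabolism, transport and protective systems beyond the light-harvesting machinery.

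Each wild type library held 3092046 to 4979055 counts of 3′ tags, reads that start close to where a transcript ends. Levels below are CPM, counts scaled by the size of each library times a normalization factor (TMM). The factors were 1.036 to 1.047 in the wild type dark libraries and 0.9574 to 0.9661 in the wild type red light libraries. Small differences in CPM between the groups therefore depend in part on these factors. A count of 0 still allows 3 counts, or 0.578 to 0.939 CPM on the same scaling, a limit that covers counting error only, since PCR copies are counted as reads. Dark and red light libraries separated along the first principal component (46.7% of the variance). The second (9.92%) set wild type dark replicate 1 (27.6) apart from the other wild type dark replicates (−20.2 and −8.15). It also set double mutant dark replicate 3 (25.0) apart from the other dark replicates of that genotype (−16.8 and −12.2). These are the dark libraries said below to stand apart.

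After 1 h of red light 1954 of 18487 tested genes were higher and 865 were lower (edgeR quasi-likelihood test, adjusted p under 0.05), which is 10.6% rising and 4.68% falling. A log2 change of 1 or more was reached by 725 risers (3.92%) and 212 fallers (1.15%). At least 2 was passed by 169 risers and 29 fallers, and at least 3 by 55 and 4. For 1926 of the risers and 841 of the fallers the 3 dark and 3 red light libraries did not overlap. A call already favours such a separation, so it is no separate support. The share without overlap among all tested genes was not counted. Most changes were modest: the median size among called genes was 0.74 on the log2 scale, and 645 risers and 356 fallers moved by less than 1.5-fold. The median log2 change over all tested genes was −0.02.

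Rises were more frequent than falls at every dark level. Among the 4622 genes lowest in the dark (up to 6.93 CPM) 7.96% rose and 1.54% fell, and among the 4622 highest (from 39.1 CPM) 15.0% rose and 7.83% fell. The size of the called rises ran the other way, with a median log2 change of 1.49 among the lowest genes and 0.49 among the highest. Called falls had medians of −1.36 and −0.46 in those 2 sets. The dark level is itself part of the contrast, so these shares and sizes are partly set by the grouping. A gene near the detection limit in the dark can pass the filter through libraries where it is higher, and can hardly be called lower. At low counts only larger changes reach a call. Summed over genes, the risers gained 1.03e+05 CPM and the fallers lost 2.07e+04 CPM.

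**Figure D1:**
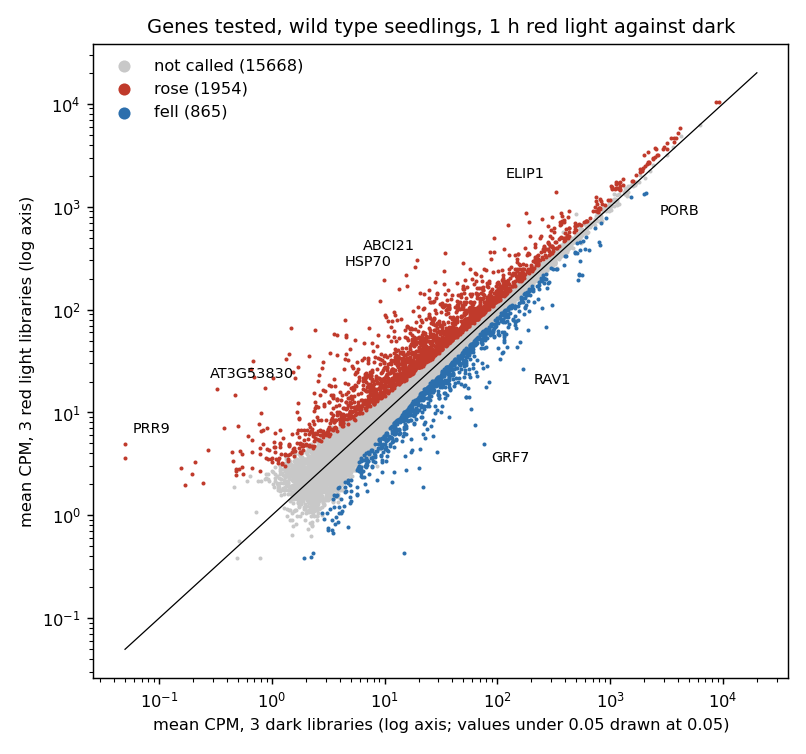
Mean CPM of each tested gene in the 3 wild type dark libraries (x, log axis) against the 3 wild type red light libraries (y, log axis), with called rises in red, called falls in blue and a line of equal levels. The 1954 risers reach farther from the line than the 865 fallers, and the largest distances are among genes low in the dark.

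To show what stands before the genes that moved most, the 250 bases upstream of the annotated start were read from the RefSeq TAIR10.1 genome. Among the 25 genes with the largest rises under the naming rule, 21 are protein-coding genes with such a window, and 4 of these hold the G-box CACGTG, which is shown in capitals. BBX30 encodes a microprotein of the B-box family, ASG4 a MYB-related factor close to the clock proteins, HSFA2 a heat shock transcription factor, and DIP2 is annotated as an E3 ubiquitin ligase. The windows lie at chr4:8708591-8708840 (plus strand), chr1:190158-190407 (plus strand), chr2:11135374-11135623 (plus strand) and chr5:763481-763730 (minus strand), each printed 5′ to 3′ in the direction of its gene.
BBX30: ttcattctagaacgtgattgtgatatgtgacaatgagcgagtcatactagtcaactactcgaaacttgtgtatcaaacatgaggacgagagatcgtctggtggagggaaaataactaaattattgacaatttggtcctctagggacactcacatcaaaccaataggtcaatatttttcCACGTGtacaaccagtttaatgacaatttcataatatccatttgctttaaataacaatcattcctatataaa
ASG4: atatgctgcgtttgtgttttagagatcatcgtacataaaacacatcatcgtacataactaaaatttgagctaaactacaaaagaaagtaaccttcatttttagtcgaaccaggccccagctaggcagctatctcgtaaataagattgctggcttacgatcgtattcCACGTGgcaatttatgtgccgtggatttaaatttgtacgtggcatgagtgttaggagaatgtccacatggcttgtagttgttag
HSFA2: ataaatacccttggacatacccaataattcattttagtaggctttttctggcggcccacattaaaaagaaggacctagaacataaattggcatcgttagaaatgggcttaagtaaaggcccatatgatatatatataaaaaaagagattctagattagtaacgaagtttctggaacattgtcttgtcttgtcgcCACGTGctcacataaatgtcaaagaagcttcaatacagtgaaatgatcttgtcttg
DIP2: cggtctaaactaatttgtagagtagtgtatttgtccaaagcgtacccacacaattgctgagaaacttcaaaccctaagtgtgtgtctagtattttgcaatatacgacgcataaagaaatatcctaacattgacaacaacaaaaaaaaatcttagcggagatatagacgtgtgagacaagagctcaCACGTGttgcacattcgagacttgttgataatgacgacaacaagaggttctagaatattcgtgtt
The first base of the G-box lies 56 to 84 bases before the start in these windows. BBX30 stood at 0.578, 1.38 and 0 CPM in the dark libraries and at 27.2, 22.2 and 29.9 CPM in red light (log2 5.25 ± 0.33 SE, edgeR adjusted p = 2.16e-11). For ASG4 the levels were 0.578, 0.276 and 1.25 CPM in the dark and 20.6, 22.2 and 23.1 CPM in red light (log2 4.98 ± 0.32 SE, edgeR adjusted p = 2.71e-11). HSFA2 went from 1.35, 1.1 and 0.626 to 22.8, 22.5 and 19.1 CPM (log2 4.27 ± 0.32 SE, edgeR adjusted p = 4.72e-10). All 3 were near the detection limit in darkness and well above it in every red light library. DIP2 stood at 1.35, 1.93 and 1.88 CPM in the dark and 26.9, 29.5 and 26.3 CPM in red light (log2 4.02 ± 0.25 SE, edgeR adjusted p = 1.53e-11). The naming rule for the largest rises and falls requires that dark and red light libraries do not overlap, so their separation was set by the choice.

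The same window was searched on both strands in 17826 of the 17827 tested protein-coding genes, for 11 short motifs, none of whose letters contain those of another. A G-box (CACGTG) was found in 7.51% of all windows, in 14% of the 695 windows of genes that rose by at least 1 on the log2 scale and in 4.52% of the 199 of genes that fell by at least 1. The related PBE-box (CACATG), bound by PIFs, was found in 11.3, 14.2 and 11.6% of the same 3 sets. The evening element of clock-controlled genes (AAAATATCT) was present in 2.47, 3.74 and 2.51%, and the CCA1-binding site (AAAAATCT) in 6.88, 6.62 and 8.54%.

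Motifs of growth and translation genes were scarcer in both sets of changed genes. Site II (TGGGCC), common before ribosomal protein and mitochondrial genes, was found in 16.9% of all windows, 10.2% of those of risers and 10.1% of those of fallers. The telo-box (AAACCCTA), its usual companion, was found in 3.38, 2.01 and 0.503%, the last 2 being 14 of 695 and 1 of 199 windows. The heat shock element (GAANNTTC, where N is any base) was found in 9.21, 10.2 and 10.1%, the I-box (GATAAG) in 12.6, 13.7 and 11.6%, the W-box (TTGACC) in 12.0, 12.2 and 14.6%, and the CGCG core (CGCGTT) in 2.71, 3.02 and 1.51%. The TATA box (TATAAA) was found in 46.0, 46.0 and 48.7%. These shares are descriptions, with no test, and a match is a run of letters, not a shown binding site.

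**Figure D2:**
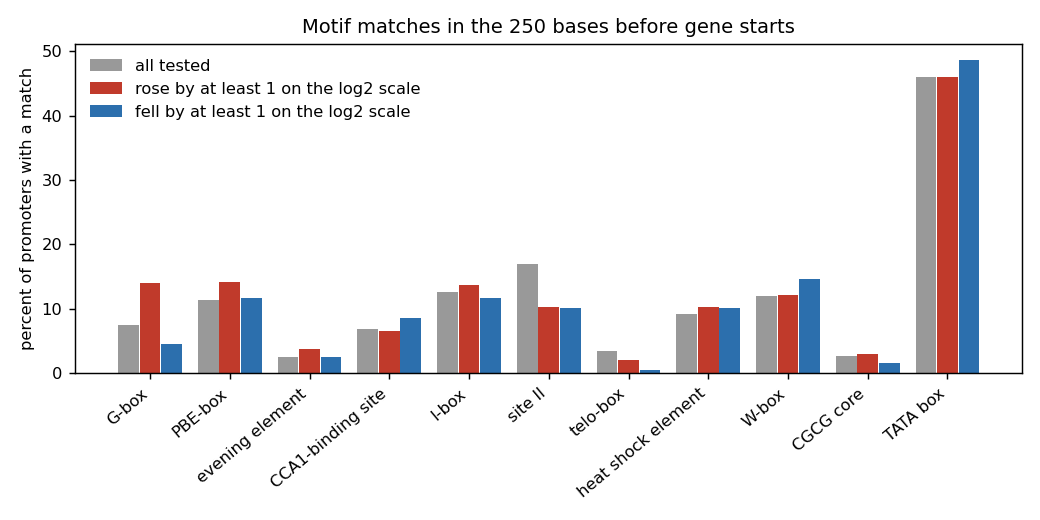
Percent of 250-base upstream windows with at least 1 match to each motif (y), for all 17826 windows (grey), genes that rose by at least 1 on the log2 scale (red, 695) and genes that fell by at least 1 (blue, 199). The G-box bar of the risers is at 14% against 7.51% for all windows, and the site II bars of both changed sets lie below that of all windows.

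B-box proteins, zinc finger regulators of light signalling and flowering, moved in both directions within 1 h. Of 29 tested members of this family 13 rose, 9 fell and 7 were not called, where 10.6% of all tested genes rose and 4.68% fell. The family was counted in full after its values had been seen. BBX29 rose from 1.54, 1.38 and 1.88 CPM in the dark to 15.4, 24.6 and 25.4 CPM in red light (log2 3.76 ± 0.27 SE, edgeR adjusted p = 2.36e-10). BBX18, a repressor of photomorphogenesis, went from 4.43, 5.79 and 3.44 to 60.8, 52.0 and 56.9 CPM (log2 3.62 ± 0.17 SE, edgeR adjusted p = 2.11e-13). The dark and red light libraries of both genes were far apart. Larger log2 rises were in BBX32 (5.51 ± 0.24), BBX31 (5.5 ± 0.28) and BBX16 (4.75 ± 0.18), and in BBX30 as given above. The largest fall of any tested gene was in BBX23 (AT4G10240), a promoter of photomorphogenesis, which stood at 13.1, 14.6 and 16.9 CPM in the dark and at 0.245, 0.813 and 0.225 CPM in red light (log2 −5.07 ± 0.46 SE, edgeR adjusted p = 1.04e-08), each red light value at or below the limit that a count of 0 allows in its library. BBX17 fell by 2.45, BBX20 (AT4G39070, also BZS1) by 1.47 and BBX27 by 1.17 on the log2 scale. Smaller falls were in BBX13 (0.89), BBX21 (0.84), BBX14 (0.78), BBX8 (0.75) and COL9 (0.68). BBX21, which promotes photomorphogenesis, thus fell while its relative BBX22 (LZF1) rose by 1.27 ± 0.20 and BBX19 by 1.30 ± 0.15. CO (CONSTANS), the flowering regulator that gives the COL genes their name, was low throughout, at 1.25 to 1.93 CPM in the dark and 0.735 to 4.27 CPM in red light (log2 0.72 ± 0.51, edgeR adjusted p = 0.415). Its relatives COL1 and COL2 rose by 1.31 ± 0.10 and 1.58 ± 0.08. Each overlaps, on the opposite strand, a gene that was called higher as well.

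Large rises outside transcription factors included ABC proteins, a lipid transport protein and a plastid sigma factor. ABCI21, a soluble protein of the ABC transporter family, was at 18.1, 18.5 and 21.3 CPM in the dark and 282, 297 and 322 CPM in red light (log2 3.97 ± 0.10 SE, edgeR adjusted p = 7.11e-18), the smallest p of all named genes. Its close relative ABCI20 rose from 28.1, 36.4 and 37.9 to 349, 371 and 355 CPM (log2 3.41 ± 0.11 SE, edgeR adjusted p = 1.57e-16). The red light libraries of both lay far above every dark library. ABCI19, the remaining member of this trio, was at 2.48 to 4.62 CPM in the dark and 2.02 to 3.92 CPM in red light, and was not called (log2 −0.36 ± 0.43, edgeR adjusted p = 0.666).

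AT1G55960, annotated as a polyketide cyclase and lipid transport protein, rose from 13.5, 14.3 and 18.8 to 209, 220.2 and 223 CPM (log2 3.83 ± 0.12 SE, edgeR adjusted p = 8.51e-17). AT3G56290, annotated as a potassium transporter, stood at 16.9, 23.2 and 15.3 CPM in darkness and 253, 251 and 280.5 CPM in red light (log2 3.83 ± 0.11 SE, edgeR adjusted p = 3.75e-17). In both, each red light value lay far above all dark values. AT3G53830, a protein with RCC1 repeats, the fold of the UV-B receptor UVR8, went from 0.385, 0.276 and 0.313 CPM, a total of 4 counts in the 3 dark libraries, to 18.1, 14.9 and 17.8 CPM (log2 5.55 ± 0.34 SE, edgeR adjusted p = 1.67e-11). SIGE, a sigma factor that directs the plastid RNA polymerase to its promoters, rose from 11.2, 8.55 and 7.51 to 98.5, 135 and 128 CPM (log2 3.69 ± 0.15 SE, edgeR adjusted p = 8.08e-15). Among all 6 plastid sigma factors, SIGC rose by 0.83 ± 0.13 and the other 4 were not called, at log2 changes of −0.07 to 0.29.

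Among the fallers, the RAV factors, which join an AP2 and a B3 DNA-binding domain and restrain flowering and growth, were lower together. RAV1 went from 182, 159 and 167 CPM in the dark to 26.7, 24.9 and 27.4 CPM in red light (log2 −2.68 ± 0.09 SE, edgeR adjusted p = 1.04e-15). TEM1 was at 75.9, 84.1 and 92.7 CPM in the dark and at 19.4, 21.4 and 19.1 CPM in red light (log2 −2.07 ± 0.11 SE, edgeR adjusted p = 9.23e-13). Dark values of both lay far above the red light values. EDF3 fell by 2.03 and RAV2 by 0.60, so that 4 of 4 tested members of this subfamily fell.

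Large falls were also seen in regulators of growth and in genes of unknown function. GRF7, a growth-regulating factor known to repress osmotic stress genes, stood at 78.4, 74.5 and 75.1 CPM in darkness and 3.19, 5.69 and 6.07 CPM in red light (log2 −3.92 ± 0.16 SE, edgeR adjusted p = 2.02e-14). ARL, an ARGOS-like promoter of cell expansion, fell from 77.4, 80.0 and 79.8 to 18.4, 17.1 and 17.3 CPM (log2 −2.17 ± 0.11 SE, edgeR adjusted p = 5.09e-13). AT5G62280, a protein of unknown function, was at 255, 278 and 273 CPM in the dark and 76.0, 63.1 and 65.6 CPM in red light (log2 −1.98 ± 0.09 SE, edgeR adjusted p = 2.11e-13). The 3 red light libraries of each lay well below every dark library. The tandem zinc finger gene AT5G44260 fell by 3.09, the WNK-type kinase gene AT1G60060 by 1.97, the J-domain protein gene AT2G17880 by 1.99, and FLP1, annotated as a flowering-promoting factor, by 1.79. AT5G57760, of unknown function, fell by 1.78, together with AT5G57770, which it overlaps on the opposite strand.

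**Figure D3:**
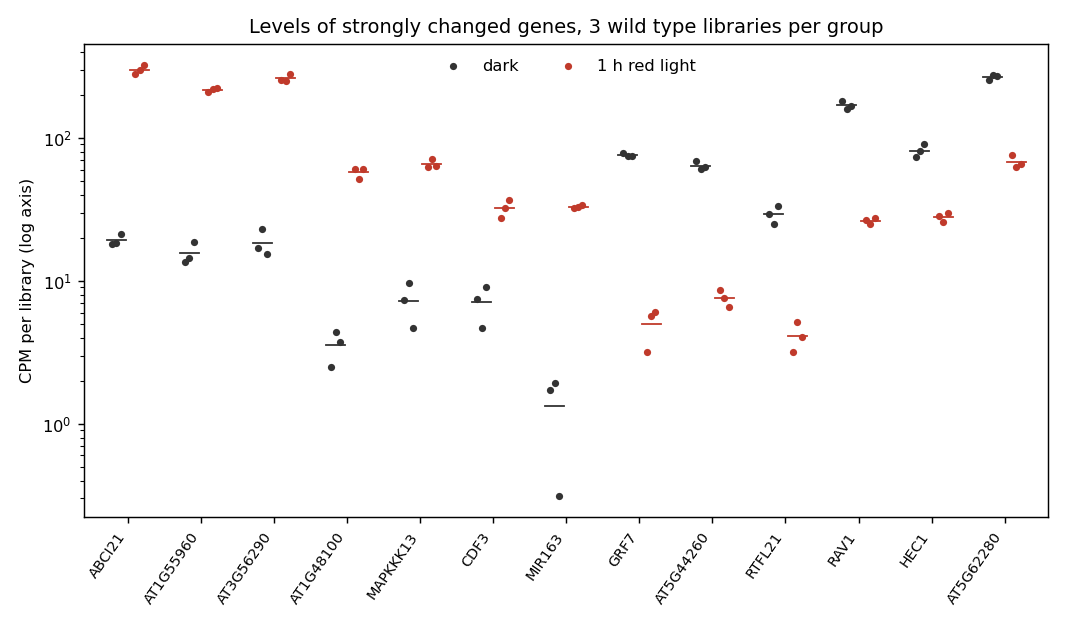
CPM in each library (y, log axis) of 7 genes that rose and 6 that fell, with dark libraries in black, red light libraries in red and a bar at each group's mean (3 libraries per group). No gene shown has a dark library among its red light values, which the naming rule for the largest rises and falls requires. The lowest MIR163 point in the dark is a library at 0.313 CPM.

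Several genes that were high in the dark lost much of their level. DYL1, a dormancy-associated gene, fell from 521, 581 and 584 to 226, 204 and 223 CPM (log2 −1.37 ± 0.07 SE, edgeR adjusted p = 5.74e-13). Its relative AT1G56220 fell by 0.92, and AT3G15450, annotated as an aluminium-induced protein gene, by 0.81. SAG21, a late embryogenesis abundant protein of mitochondria, went from 669, 667 and 622 to 352, 404 and 385 CPM (log2 −0.78 ± 0.07 SE, edgeR adjusted p = 5.17e-09). BT2, a scaffold protein with BTB and TAZ domains that responds to sugar, nitrogen and light, fell from 348, 292 and 281 to 111, 108 and 111 CPM (log2 −1.49 ± 0.09 SE, edgeR adjusted p = 2.49e-11). All dark values of these genes lay above all red light values. BT1 fell by 0.87 and BT4 rose by 0.72 ± 0.16, 2 of the 5 tested members falling and 2 rising. The rises became 1 with DESeq2 and with any wild type library left out.

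Members that moved were counted in each transcription factor family, read against 10.6% rising and 4.68% falling over all genes. Of 12 tested DOF zinc finger factors 5 rose and 0 fell (41.7% rose, median log2 change 0.39), on a list matched by symbol. All 4 tested cycling DOF factors, which repress flowering genes, were higher, of which AT1G69570 carries no such symbol and is not in that count. CDF3 stood at 7.51, 4.69 and 9.08 CPM in the dark and 27.4, 32.5 and 36.9 CPM in red light (log2 2.19 ± 0.20 SE, edgeR adjusted p = 1.44e-08), and CDF1 rose from 1.73, 0.827 and 0.626 to 5.14, 6.50 and 7.42 CPM (log2 2.44 ± 0.42 SE, edgeR adjusted p = 1.23e-04). Neither overlapped between groups. CDF2 rose by 0.48 ± 0.13 and the fourth, AT1G69570, by 0.73 ± 0.12. Of 62 MYB factors 17 rose and 4 fell (27.4% and 6.45%, median 0.20), and of 48 NAC factors 14 rose and 5 fell (29.2% and 10.4%, median 0.24). The NAC rises became 9 without wild type red replicate 3, and the NAC falls 3 without dark replicate 3 or red replicate 1. The MYB falls became 2 without dark replicate 1, without red replicate 2 and with both dark libraries that stand apart left out.

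MYB13 was among the genes with the smallest p of the MYB list and rose from 8.47, 10.2 and 6.89 to 39.2, 44.7 and 50.4 CPM (log2 2.38 ± 0.17 SE, edgeR adjusted p = 2.2e-10). MYB111, an activator of flavonol synthesis, rose by 1.83 ± 0.24, PAP1, an activator of anthocyanin synthesis, by 1.1 ± 0.19, and MYB96, an activator of cuticular wax synthesis, by 1.32 ± 0.18. MYB10, which acts in iron deficiency, fell from 54.5, 47.4 and 51.7 to 18.9, 19.5 and 17.3 CPM (log2 −1.47 ± 0.13 SE, edgeR adjusted p = 6.89e-09). The NAC factor RD26, known from abscisic acid and drought responses, went from 27.5, 33.9 and 34.4 to 95.1, 99.7 and 92.4 CPM (log2 1.60 ± 0.11 SE, edgeR adjusted p = 1.26e-10). NAC032 rose by 1.45 ± 0.15 and ATAF1 by 0.97 ± 0.11.

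Homeobox factors had more falls than rises: of 41 tested, 9 fell and 5 rose (22.0% and 12.2%, median −0.12), the rises becoming 3 without wild type red replicate 1. Among the class II HD-Zip subfamily, shade-response regulators, 4 of 8 tested fell and 1 rose. HB-2 fell by 2.21, HB4 by 1.21, HAT3 by 1.11 and HAT2 by 0.63, while HAT9 rose by 1.43 ± 0.27 and HAT1, HAT14 and HAT22 were not called. Outside that class, the drought-linked HB-7 and HB-12 rose: HB-12 was at 18.5, 18.8 and 22.5 CPM in the dark and 61.2, 59.6 and 65.0 CPM in red light (log2 1.65 ± 0.12 SE, edgeR adjusted p = 2.11e-10), and HB-7 rose by 1.34 ± 0.16. HB52, a homeodomain-leucine zipper factor, fell from 41.8, 53.8 and 62.9 to 16.4, 10.6 and 15.7 CPM (log2 −1.86 ± 0.17 SE, edgeR adjusted p = 9.71e-09).

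Among 93 bHLH factors on a list that leaves out the best-known PIFs, 11 rose and 9 fell (11.8% and 9.68%, median 0.01). HEC1, which with its relatives acts on PIF activity and carpel growth, went from 73.0, 80.8 and 90.8 to 28.4, 26 and 29.7 CPM (log2 −1.53 ± 0.13 SE, edgeR adjusted p = 4.31e-09). HEC2 fell by 1.20, their partner SPT by 1.03 and AT3G21330 by 2.2. UNE10, also known as PIF8, rose by 1.46 ± 0.13 and GL3, a regulator of leaf hairs, by 1.64 ± 0.35. TCP factors, which set cell proliferation in young organs, had 5 of 17 higher and 3 lower (29.4% and 17.6%). Their 5 rises became 2 or 3 under 8 of the alternatives, among them DESeq2 and the fits without wild type dark replicate 1 or 3 or red replicate 1 or 3. Their 3 falls became 1 with DESeq2 and without dark replicate 2, red replicate 1 or red replicate 3. TCP9 rose by 1.07 ± 0.14, as did a gene that overlaps it on the opposite strand, and TCP15 fell by 0.72.

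Of 45 WRKY factors, mostly known from immunity, 2 rose and 3 fell (4.44% and 6.67%, median −0.09). The rises became 0 with DESeq2 and 1 under 10 other alternatives, including each wild type library left out, and the falls became 1 without dark replicate 2 or red replicate 3. WRKY65 fell from 52.8, 50.7 and 45.1 to 31.4, 33.9 and 32.6 CPM (log2 −0.61 ± 0.11 SE, edgeR adjusted p = 1.94e-04). The 52 AP2/ERF factors had 10 rises and 6 falls (19.2% and 11.5%), the falls becoming 3 with a minimum of 5 CPM. SMZ and SNZ, which repress flowering, rose by 2.05 ± 0.14 and 1.92 ± 0.14, and RAP2.7, of the same clade but not matched by the product names behind that count, by 1.02 ± 0.08. SMZ overlaps AT3G54980 on the opposite strand, which rose by 2.18 ± 0.13. TNY, a stress factor that restrains growth, rose from 9.44, 9.38 and 5.64 to 37.2, 35.0 and 32.8 CPM (log2 2.06 ± 0.17 SE, edgeR adjusted p = 1.33e-09). GATA factors split: GNC, a regulator of chloroplast development, rose by 1.17 ± 0.11, whereas GATA4 fell by 0.99 and GATA2, a promoter of photomorphogenesis, by 0.86.

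Photorespiration had the largest share of risers among the 79 gene lists described. The pathway salvages the product made when Rubisco fixes oxygen, and runs through peroxisomes and mitochondria. Of 22 tested genes 15 rose and 2 fell (68.2% and 9.09%, against 10.6% and 4.68% of all genes), with a median log2 change of 0.40. GLDP1, a glycine decarboxylase subunit, was at 361, 373 and 364 CPM in the dark and 846, 869 and 878 CPM in red light (log2 1.24 ± 0.07 SE, edgeR adjusted p = 1.44e-12). GOX1, a glycolate oxidase, rose from 335, 314 and 313 to 603, 631 and 629 CPM (log2 0.95 ± 0.07 SE, edgeR adjusted p = 8.74e-11). In both, the lowest red light library lay well above the highest dark library.

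Later steps of the same route were higher too. The peroxisomal aminotransferase gene GGT1 went from 369.6, 390.2 and 373 to 716, 747 and 720.2 CPM (log2 0.95 ± 0.07 SE, edgeR adjusted p = 3.99e-10), and its partner AGT rose by 0.86 ± 0.06. HPR, the hydroxypyruvate reductase, rose by 1.02 ± 0.09, the mitochondrial carrier BOU by 0.64 ± 0.08 and SHM1, a serine hydroxymethyltransferase, by 0.33 ± 0.07. The 2 falls were in PGLP2, a phosphoglycolate phosphatase (0.65 on the log2 scale), and the hydroxyacid oxidase HAOX2 (0.44), and were reduced to 1 under 6 alternatives, among them the fits without wild type dark replicate 1 or 3 or red replicate 1 or 3.

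Genes that detoxify reactive oxygen and xenobiotics rose in many members. Of 38 reactive oxygen scavenging genes 12 rose and 1 fell (31.6% and 2.63%, median 0.16), and of 36 glutathione S-transferases 12 rose and 0 fell (33.3%, median 0.14). The scavenging fall was lost without wild type dark replicate 3 or red replicate 3, and 1 transferase fell without red replicate 3. VTC2, which catalyses the controlling step of ascorbate synthesis, went from 177, 179 and 187 to 822, 869.6 and 914 CPM (log2 2.26 ± 0.08 SE, edgeR adjusted p = 7.63e-16). VTC5, its paralogue, rose by 0.92 ± 0.12. GSTU5 stood at 119.6, 137 and 114 CPM in the dark and 658, 677 and 659.8 CPM in red light (log2 2.43 ± 0.08 SE, edgeR adjusted p = 1.91e-16). GSTU17, given here by its symbol ERD9, went from 15.6, 16.8 and 12.8 to 65.7, 62.9 and 61.1 CPM (log2 2.05 ± 0.14 SE, edgeR adjusted p = 1.12e-10). The dark libraries of all 3 genes lay well under the red light libraries. Tau-class glutathione S-transferases include near copies, so the division of counts among them is uncertain.

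Of 7 tested glutathione peroxidases, which reduce lipid peroxides, 5 rose and 0 fell. The chloroplast form GPX7 rose from 2.70, 2.21 and 3.13 to 13.2, 14.1 and 17.1 CPM (log2 2.46 ± 0.26 SE, edgeR adjusted p = 1.19e-07), and GPX6 from 63.2, 60.1 and 53.2 to 131, 132 and 147 CPM (log2 1.21 ± 0.10 SE, edgeR adjusted p = 1.86e-09). GPX3 rose by 1.03 ± 0.11, while GPX5 and GPX8 were not called. GPX3 and GPX7 each overlap a risen gene on the opposite strand. APX1, the cytosolic ascorbate peroxidase, rose by 0.47 ± 0.11 and the dehydroascorbate reductases DHAR1 and DHAR2 by 0.60 ± 0.16 and 0.57 ± 0.15.

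Sulfate assimilation supplies cysteine for glutathione, and its reducing step rose. Of 30 genes on that list 8 rose and 0 fell (26.7%, median 0.08), among them all 3 APS reductases. APR2 went from 50.5, 64.8 and 56.7 to 234, 256 and 262 CPM (log2 2.13 ± 0.10 SE, edgeR adjusted p = 2.86e-13), and overlaps 2 genes on the opposite strand that were called higher as well. APR3 stood at 38.1, 37.2 and 31.9 CPM in darkness and 89.9, 110.0 and 103 CPM in red light (log2 1.49 ± 0.11 SE, edgeR adjusted p = 1.57e-10), and APR1 rose by 1.67 ± 0.19. LSU3 and LSU2, small proteins that respond to low sulfur, rose by 2.48 ± 0.23 and 3.61 ± 0.48. No red light library of these genes was within the dark range.

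Starch genes rose at steps of both synthesis and breakdown. Of 30 starch genes 7 rose and 0 fell (23.3%, median 0.22). CT-BMY, the plastid β-amylase BAM3 that degrades starch, rose from 1.93, 4.96 and 3.76 to 23.8, 20.1 and 19.6 CPM (log2 2.64 ± 0.28 SE, edgeR adjusted p = 1.54e-07). GBSS1, which makes amylose, was at 14.2, 18.8 and 14.1 CPM in the dark and 53.9, 53.9 and 50.8 CPM in red light (log2 1.76 ± 0.13 SE, edgeR adjusted p = 3.30e-10). BMY3 rose by 1.15 ± 0.11 and the starch synthase SS1 by 0.63 ± 0.11. All 4 genes lay higher in each red light library than in any dark library.

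Among 32 plastid fatty acid genes 6 rose and 0 fell (18.8%, median 0.04). FAD5, the desaturase that acts on galactolipids, went from 35.8, 49.1 and 27.2 to 102, 102 and 100.5 CPM (log2 1.44 ± 0.12 SE, edgeR adjusted p = 5.34e-09). FADA, also called FAD4, which desaturates phosphatidylglycerol of thylakoids, rose from 33.1, 42.2 and 37.6 to 105, 109 and 115 CPM (log2 1.55 ± 0.12 SE, edgeR adjusted p = 3.45e-10), and overlaps the risen gene VPS22. DGD1, a galactolipid synthase, rose by 0.65 ± 0.13.

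Phenylpropanoid and glycosylation genes rose in part. Of 20 phenylpropanoid and lignin genes 6 rose and 0 fell (30.0%, median 0.15), and of 51 UDP-glycosyltransferases 15 rose and 5 fell (29.4% and 9.80%, median 0.14). UGT84A2, which makes sinapoylglucose for sunscreen compounds, stood at 40.2, 41.1 and 36.0 CPM in the dark and 117, 138 and 122 CPM in red light (log2 1.67 ± 0.11 SE, edgeR adjusted p = 2.65e-11). The ferulate hydroxylase gene FAH1 (AT4G36220), which acts in the same route, rose by 1.57 ± 0.28. UGT78D2, which puts glucose on flavonols and anthocyanins, went from 11.9, 10.8 and 13.8 to 60.3, 58.2 and 66.3 CPM (log2 2.35 ± 0.16 SE, edgeR adjusted p = 7.64e-11). DOGT1, known to glucosylate brassinosteroids, rose from 32.7, 26.5 and 27.2 to 129.8, 134 and 124 CPM (log2 2.15 ± 0.11 SE, edgeR adjusted p = 7.13e-13). No overlap between the groups was seen in these 3. PAL2 and C4H, the entry enzymes of the pathway, rose by 0.41 ± 0.07 and 0.42 ± 0.09.

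Of 126 cytochrome P450 genes 34 rose and 8 fell (27% and 6.35%, median 0.11), the falls becoming 5 without wild type dark replicate 1. All 3 tested abscisic acid 8′-hydroxylases, which start the breakdown of that hormone, were higher, CYP707A1 by 0.98 ± 0.14, CYP707A2 by 2.39 ± 0.53 and CYP707A3 by 0.64 ± 0.19. CYP72A15 went from 32.4, 31.7 and 40.1 to 92.6, 102 and 102 CPM (log2 1.52 ± 0.10 SE, edgeR adjusted p = 6.03e-11). CYP94B3, which turns over jasmonoyl-isoleucine, rose by 1.97 ± 0.25, and CYP81F2, an enzyme of indole glucosinolate modification, fell by 1.85. Of 44 cuticular wax and cutin genes 14 rose and 4 fell (31.8% and 9.09%, median 0.08), the falls becoming 2 under 8 alternatives, among them the fits without wild type dark replicate 1 or 2 or red replicate 1 or 2. WSD1, a wax ester synthase, rose from 3.47, 4.41 and 3.44 to 14, 14.6 and 11.9 CPM (log2 1.83 ± 0.26 SE, edgeR adjusted p = 9.84e-06), and MYB16, a regulator of cuticle formation, by 0.94 ± 0.15.

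Membrane transport changed by family. MATE efflux proteins, which export organic cations and metabolites, had 12 of 34 higher and 1 lower (35.3% and 2.94%, median 0.28). The MATE falls were 2 without wild type dark replicate 2 and 0 without dark replicate 3 or red replicate 3. AT1G61890 went from 74.0, 105 and 101 to 392, 335 and 362 CPM (log2 1.97 ± 0.13 SE, edgeR adjusted p = 9.10e-11). Of 29 aquaporins 9 rose and 0 fell (31.0%, median 0.14). RD28, a plasma membrane water channel, stood at 81.8, 69.8 and 68.6 CPM in the dark and 124, 130.3 and 129.9 CPM in red light (log2 0.79 ± 0.09 SE, edgeR adjusted p = 3.53e-07), and PIP1;4 rose by 0.50 ± 0.08. Plasma membrane aquaporins are close copies of each other, which leaves the split of their counts uncertain. Of 53 metal transporters 10 rose and 0 fell (18.9%, median 0.13), led in size by the zinc transporter ZIP11 (1.80 ± 0.21).

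Nitrate and peptide carriers had 5 of 24 higher and 3 lower (20.8% and 12.5%), the falls becoming 0 without wild type red replicate 2 and 1 without dark replicate 2 or 3 or red replicate 1 or 3. AT3G21670 (NPF6.4), of the nitrate transporter family, rose from 4.43, 5.24 and 5.01 to 43.4, 35.0 and 45.4 CPM (log2 3.09 ± 0.17 SE, edgeR adjusted p = 3.02e-12). NRT1.7, which reloads nitrate from old to young leaves, rose by 1.80 ± 0.21, and GTR1, a glucosinolate importer, by 1.17 ± 0.12 while its paralogue GTR2 fell by 0.32. SWEET2, a vacuolar sugar carrier, went from 11.8, 16.6 and 13.5 to 80.6, 82.1 and 82.7 CPM (log2 2.57 ± 0.17 SE, edgeR adjusted p = 5.31e-11), and the sucrose symporter SUC1 fell by 0.48. UMAMIT11, an amino acid exporter of the nodulin MtN21 family, rose from 10.6, 13.2 and 14.1 to 47.5, 50.1 and 51.2 CPM (log2 2 ± 0.13 SE, edgeR adjusted p = 6.03e-11), though 2 of 33 members of that family rose and 2 fell (6.06% each), with 1 rise under DESeq2 or without wild type red replicate 3 and 5 rises with no filter on low counts. Of 8 plasma membrane proton pumps with enough counts 0 were called by edgeR (1 higher and 1 lower at an unadjusted p under 0.05) and 0 by DESeq2.

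Kinase cascades and calcium signalling held a few large rises. MAPKKK13 was at 7.32, 9.65 and 4.70 CPM in darkness and 63.0, 71.0 and 63.6 CPM in red light (log2 3.16 ± 0.16 SE, edgeR adjusted p = 4.95e-13). MAPKKK14, its paralogue, went from 11.2, 11.6 and 11.3 to 66.9, 65.3 and 71.9 CPM (log2 2.58 ± 0.14 SE, edgeR adjusted p = 1.21e-12). For both genes each red light library lay well above the highest dark library. MAPKKK15, MAPKKK17 and MAPKKK18, of the same clade and known from abscisic acid signalling, rose by 0.99 ± 0.27, 1.26 ± 0.33 and 1.52 ± 0.39, and MAPKKK19 was not called (−1.43 ± 0.54, edgeR adjusted p = 0.0825). Over 49 genes of MAP kinase cascades 11 rose and 3 fell (22.4% and 6.12%), with 7 rises without wild type dark replicate 1 or without both dark libraries that stand apart, and 1 fall under DESeq2 or without dark replicate 2. Of 51 CBL-interacting and calcium-dependent kinases 13 rose and 3 fell (25.5% and 5.88%, median 0.04), the largest rise being in CIPK1 (1.04 ± 0.09).

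Several negative regulators of abscisic acid signalling rose. HAI1, a group A protein phosphatase 2C, went from 2.70, 1.66 and 2.82 to 14.4, 16.2 and 15.5 CPM (log2 2.66 ± 0.25 SE, edgeR adjusted p = 1.48e-08). PP2CA stood at 8.28, 15.4 and 16 CPM in the dark and 36.3, 34.1 and 36.9 CPM in red light (log2 1.49 ± 0.17 SE, edgeR adjusted p = 5.15e-07). HAB1 rose by 1.44 ± 0.11 and ABI1 by 0.57 ± 0.12, so 4 of the 7 tested group A members rose, and ABI2, HAB2 and HAI2 were not called. RHA2A, a RING ligase of the same hormone's signalling, rose from 35.6, 37.5 and 29.7 to 135, 139.5 and 149 CPM (log2 2.03 ± 0.10 SE, edgeR adjusted p = 2.86e-13), while the 250 RING and U-box genes as a whole were near the background, with 26 rises and 16 falls (10.4% and 6.40%). F-box genes had 12 of 136 higher and 4 lower (8.82% and 2.94%), the rises becoming 7 without wild type dark replicate 1, and AUF1, which acts on auxin transport, rose from 53.4, 57.6 and 47.9 to 132, 131 and 128 CPM (log2 1.30 ± 0.09 SE, edgeR adjusted p = 1.04e-10).

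Strigolactone and karrikin signalling, which shares MAX2 with light responses of seedlings, had 5 of 13 genes higher and 0 lower (38.5%, median 0.34). KAI2, the karrikin receptor, was at 18.7, 21.2 and 20.4 CPM in the dark and 52.7, 51.7 and 57.5 CPM in red light (log2 1.44 ± 0.14 SE, edgeR adjusted p = 3.26e-08). MAX2, the F-box protein that both routes use, went from 17.9, 16.3 and 15.7 to 30.1, 31.7 and 31.2 CPM (log2 0.89 ± 0.14 SE, edgeR adjusted p = 4.03e-05), and KUF1, a karrikin-induced F-box gene, rose by 0.77 ± 0.17. CYP711A1, the strigolactone synthesis enzyme MAX1, rose by 1.31 ± 0.21, and AT3G03990, the strigolactone receptor D14, by 0.59 ± 0.09. Of 38 cytokinin genes 7 rose and 1 fell (18.4% and 2.63%, median 0.25), the fall being lost without wild type dark replicate 2 or red replicate 1 or 2. LOG1, which activates the hormone, was at 23.5, 22.9 and 21.3 CPM in the dark and 68.8, 56.6 and 53.0 CPM in red light (log2 1.39 ± 0.13 SE, edgeR adjusted p = 1.01e-08). ARR7 and ARR9, feedback regulators, rose by 1.53 ± 0.33 and 0.93 ± 0.11.

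Small secreted peptides went both ways, with 9 of 61 higher and 9 lower (14.8% each). Most of the falls lay in the RTFL family, peptides that limit cell proliferation along the length of organs: 7 of 17 tested members fell and 1 rose. RTFL21 went from 29.3, 25.1 and 33.5 to 3.19, 5.15 and 4.05 CPM (log2 −2.83 ± 0.21 SE, edgeR adjusted p = 3.47e-10). RTFL12 stood at 22.5, 22.9 and 21.6 CPM in the dark and 9.06, 8.67 and 5.62 CPM in red light (log2 −1.53 ± 0.17 SE, edgeR adjusted p = 3.05e-07), and RTFL16 fell from 107, 118 and 116 to 60.5, 56.1 and 54.6 CPM (log2 −0.99 ± 0.09 SE, edgeR adjusted p = 2.44e-08). Every red light library of these was under every dark library. RTFL1, RTFL8, RTFL9 and RTFL13 fell by 1.89, 1.33, 1.09 and 1.07, and the rise of RTFL18 (2.22 ± 0.59) was from under 1 to 2.02 to 3.25 CPM. Of the other peptides RGF9, a root meristem growth factor, rose by 1.47 ± 0.12, PSK3, a phytosulfokine precursor, by 1.18 ± 0.14 and STOMAGEN, which promotes stomata, by 0.62 ± 0.13.

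Of 223 receptor-like kinases 9 rose and 15 fell (4.04% and 6.73%, median −0.03), against a median of −0.02 for all genes. The rises became 4 with DESeq2 and 5 without wild type red replicate 1, and the falls 8 with DESeq2 and 9 without dark replicate 3 or red replicate 2. FLS2, the receptor of bacterial flagellin, went from 30.0, 27.6 and 30.4 to 8.82, 10.6 and 12.6 CPM (log2 −1.45 ± 0.15 SE, edgeR adjusted p = 6.57e-08). Of 25 auxin transport genes 0 rose and 3 fell (12.0%, median −0.09). WAG2, a kinase that steers PIN auxin carriers and acts in the apical hook, fell from 24.8, 18.8 and 24.4 to 9.31, 8.13 and 6.74 CPM (log2 −1.50 ± 0.18 SE, edgeR adjusted p = 1.12e-06). AUX1, an auxin importer, was at 119, 129 and 127 CPM in the dark and 99.5, 106 and 105 CPM in red light (log2 −0.27 ± 0.08 SE, edgeR adjusted p = 0.0306), a call that was lost under DESeq2 and without any of 5 of the 6 wild type libraries. Of 38 histone genes 8 fell and 0 rose (21.1%, median −0.14), and the falls were 14 with the dark libraries that stood apart left out and 5 without wild type red replicate 2. HTB9, a histone H2B, went from 268, 262 and 275 to 205, 180.1 and 211 CPM (log2 −0.43 ± 0.08 SE, edgeR adjusted p = 1.58e-04). Histone genes are near copies, and the split of counts among them is uncertain.

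Cold-regulated genes were higher in seedlings that had stayed at 22 °C by the labels. Of 21 tested 13 rose and 1 fell (61.9% and 4.76%), with a median log2 change of 0.90. COR413-PM1, a plasma membrane protein, was at 246, 254 and 250.5 CPM in darkness and 790.1, 742 and 761 CPM in red light (log2 1.61 ± 0.07 SE, edgeR adjusted p = 2.15e-14). KIN2 went from 168, 130.4 and 131 to 302, 318 and 389 CPM (log2 1.23 ± 0.14 SE, edgeR adjusted p = 3.03e-07), and the dehydrin ERD10 from 212, 212 and 218 to 394, 388 and 422 CPM (log2 0.91 ± 0.08 SE, edgeR adjusted p = 3.09e-09). In each of the 3 the lowest red light value was above the highest dark value. LTI78 rose by 1.26 ± 0.16, the dehydrin LTI30 by 1.29 ± 0.15, KIN1, a near copy of KIN2, by 1.19 ± 0.22, and CBF2, the factor upstream of many of them, by 1.23 ± 0.37. COR27, a cold- and clock-linked regulator of light signalling, was the fall (−1.29 ± 0.41, edgeR adjusted p = 0.0328) and lost its call under 7 alternatives, among them DESeq2 and the fits without wild type dark replicate 1 or 2 or red replicate 2 or 3.

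Few genes of translation, protein breakdown and cell division were called. Of 311 ribosomal protein genes 3 rose and 5 fell (0.965% and 1.61%, median −0.09). At an unadjusted p under 0.05 by edgeR 5 were higher and 33 lower, so small changes leaned towards falls. The called rises became 6 with no filter on low counts. The called falls became 1 to 3 without wild type dark replicate 1 or 3 or red replicate 1 or 3. Plastid ribosomal proteins had 0 of 22 called by edgeR (0 at an unadjusted p under 0.05) and 0 by DESeq2, though 2 rose with no filter on low counts. Proteasome subunits had 1 fall among 42 (2.38%), which was lost under 8 alternatives, among them DESeq2 and each wild type library but dark replicate 2 left out, while 1 subunit rose without that library or with no filter. Of 124 pentatricopeptide repeat genes, which process organelle RNA, 3 rose and 4 fell (2.42% and 3.23%), with 5 rises without dark replicate 1 and 2 falls with a minimum of 5 CPM. Of 50 tRNA synthetases 1 rose (2%), and up to 2 rose or fell under other alternatives, among them the fits without dark replicate 1 or 3 or red replicate 2. Cyclins and cell cycle inhibitors had 3 rises among 52 (5.77%) and 0 falls, or 1 rise without dark replicate 1 and 1 fall without dark replicate 3: the inhibitor LGO rose by 0.63 ± 0.12, ICK1 by 0.41 ± 0.12 and SIM by 0.33 ± 0.11, the last 2 of these calls being lost under some alternatives. Of 19 SR splicing factors 3 rose and 1 fell (15.8% and 5.26%). The light- and stress-linked SR45a rose from 21.6, 22.9 and 30.4 to 81.3, 90.8 and 85.9 CPM (log2 1.81 ± 0.12 SE, edgeR adjusted p = 4.08e-11) and SR30 by 0.92 ± 0.10.

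Cell wall lists were mixed. Of 112 pectin-modifying genes 15 rose and 11 fell (13.4% and 9.82%, median −0.04), the falls becoming 6 or 7 with DESeq2 and without wild type dark replicate 3 or red replicate 2 or 3. The pectin lyase-like gene AT1G60590 went from 3.08, 3.86 and 1.56 to 31.6, 30.6 and 30.4 CPM (log2 3.39 ± 0.23 SE, edgeR adjusted p = 6.18e-11), while the pectin methylesterase inhibitor gene AT1G14890 fell from 70.9, 53.0 and 69.5 to 26, 24.9 and 23.8 CPM (log2 −1.38 ± 0.14 SE, edgeR adjusted p = 5.85e-08). Both were without overlap. Of 29 cellulose synthase family genes 6 rose and 1 fell (20.7% and 3.45%), the fall being lost without wild type dark replicate 3 or red replicate 2. The adjacent near copies CSLB03 and CSLB04 rose by 2.01 ± 0.23 and 1.59 ± 0.16. AGP17, an arabinogalactan protein, rose from 9.63, 8.27 and 10.6 to 38.2, 33.3 and 25.4 CPM (log2 1.76 ± 0.17 SE, edgeR adjusted p = 3.78e-08).

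**Figure D4:**
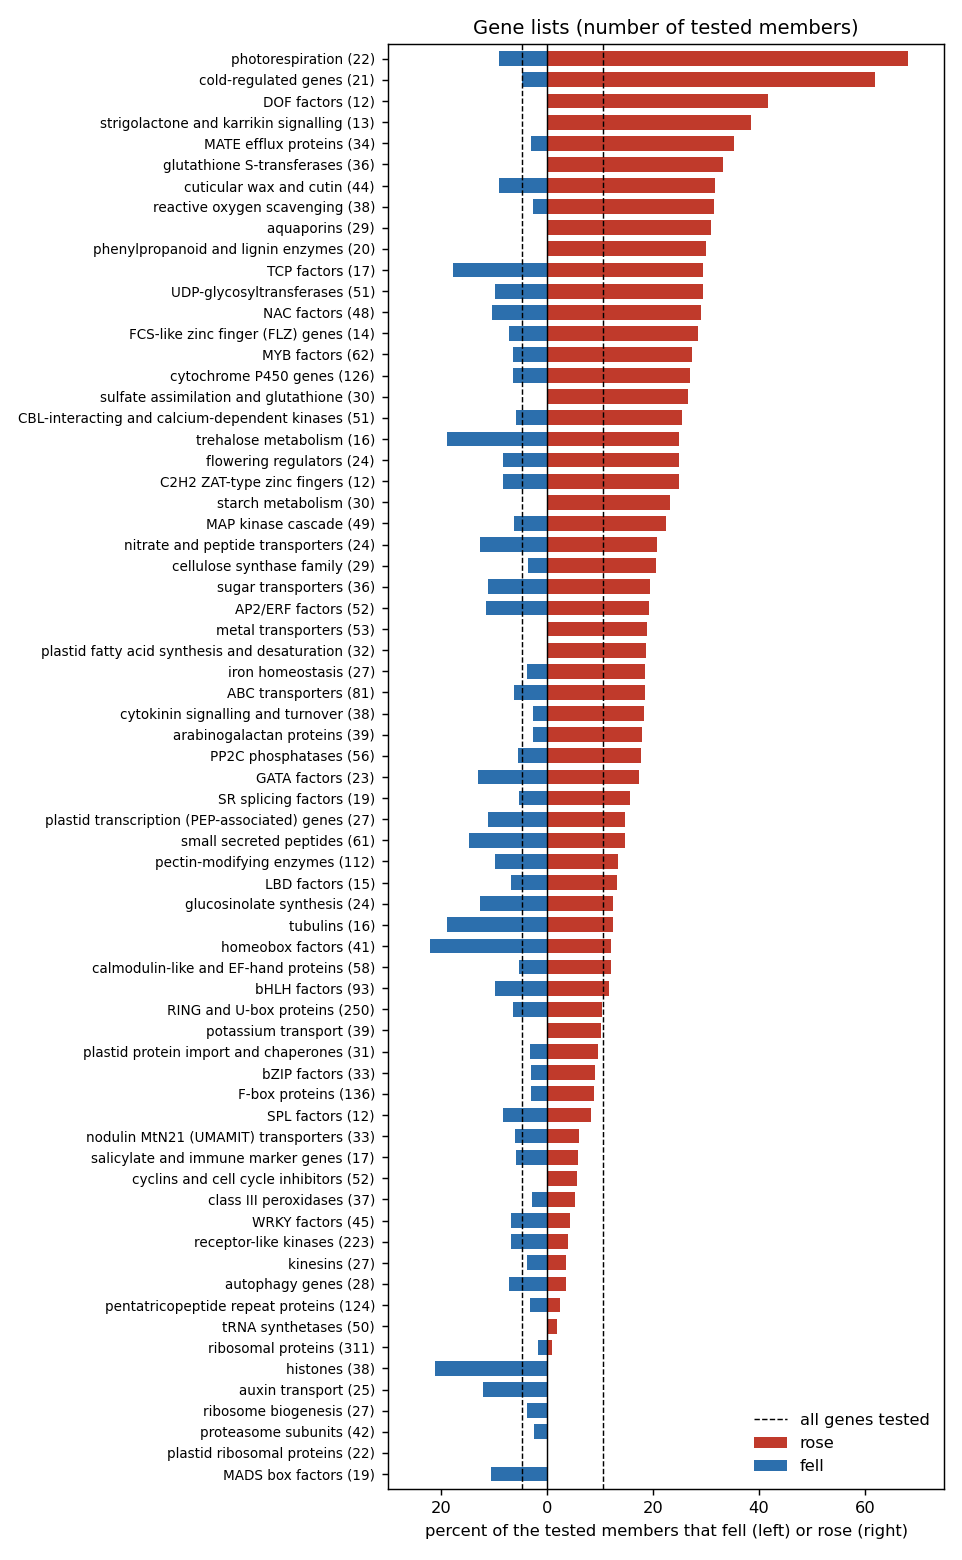
Percent of tested members that rose (right, red) or fell (left, blue) in wild type seedlings after 1 h of red light, ordered by the share that rose, with dashed lines at 10.6% and 4.68% for all tested genes and the number of tested members in brackets (lists of at least 12 tested members, cell type markers left out). Photorespiration (68.2%) and cold-regulated genes (61.9%) stand farthest right, homeobox factors (22.0%) and histones (21.1%) farthest left.

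Shares called among non-coding genes were near the background of 10.6% and 4.68%. Of 491 tested genes annotated as lncRNA 42 rose and 25 fell (8.55% and 5.09%), of 78 annotated as other non-coding RNA 7 rose and 3 fell (8.97% and 3.85%), and of 41 snoRNA genes 3 rose and 0 fell (7.32%). Among 9 microRNA genes with enough counts, the precursor gene MIR163 was the riser, and the other 8 were not called by edgeR (1 was lower at an unadjusted p under 0.05) or by DESeq2, with log2 changes of −1.16 (MIR408) to 0.51 (MIR5631). The mature product, known to target methyltransferase transcripts of the SABATH family, is given here from RefSeq TAIR10.1 at chr1:24884359-24884382 (plus strand), with its seed (bases 2 to 8) in capitals.
miR163: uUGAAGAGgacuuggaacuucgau
The precursor was at 1.73, 1.93 and 0.313 CPM in the dark libraries (17 counts in all) and at 32.3, 32.8 and 34.2 CPM in red light (405 counts; log2 4.52 ± 0.28 SE, edgeR adjusted p = 1.88e-11). Tags near the 3′ end of the precursor transcript do not measure the mature microRNA. PXMT1 (AT1G66700), a methyltransferase gene known as its target, was at 6.50 to 10.5 CPM across the 6 libraries and was not called.

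Many called non-coding genes lie over a coding gene on the opposite strand. The sources used here do not say whether counting used the strand, and without it the reads of such partners cannot be told apart. Of 1490 tested pairs that overlap by at least 100 bases on opposite strands, 205 had total wild type counts within 1.1-fold of each other. Both members were called in 142 pairs, in the same direction in 141 and in opposite directions in 1. Among risen genes 210 (10.7%) had a risen partner of this kind, and among fallen genes 67 (7.75%) had a fallen one. Of 81 called non-coding genes 52 had a partner called the same way and 14 had no tested partner. The share of all tested genes that have such a partner was not counted, so these shares have no background beside them. The 10.7% is a share of risen genes, not the share of all genes that rose.

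The lncRNA AT1G07477 and the pectin lyase-like gene AT1G48100 had 740 and 749 counts in the 6 libraries and rose by 3.91 ± 0.17 and 4.06 ± 0.19. AT3G51238 and the flavonoid gene F3H had 1087 and 1086 counts, and log2 changes of 2.71 and 2.86. AT4G14120 and XTH15 had 8857 and 8805 counts and fell by 1.25 and 1.27. Within each of these pairs the changes differed by less than the larger SE. AT5G06385 differed from its partner AT5G42760: it had 469 against 915 counts and rose by 4.68 ± 0.23, against 1.87. It went from 1.35, 1.38 and 1.56 to 30.9, 43.1 and 37.5 CPM (log2 4.68 ± 0.23 SE, edgeR adjusted p = 2.92e-13). The lncRNA AT3G04685 rose by 3.56 ± 0.12 and its partner MBF1C, a coactivator of heat responses, by 2.84.

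**Figure D5:**
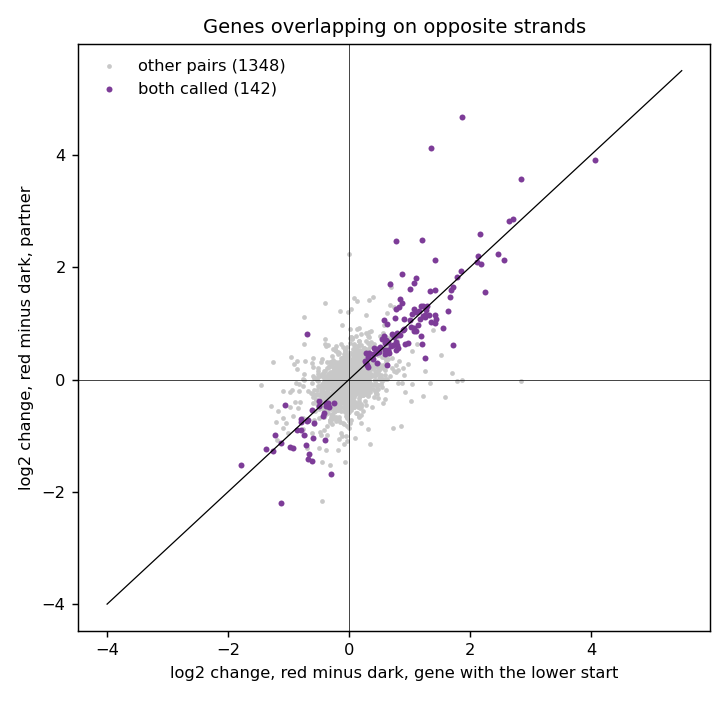
Log2 change (red light minus dark, wild type) of the gene with the lower start (x) against that of its partner on the opposite strand (y), for 1490 tested pairs overlapping by at least 100 bases. The 142 pairs with both members called (purple) lie along the line of equal change, except 1 pair with opposite signs and a few pairs such as AT5G42760 and AT5G06385 (1.87 and 4.68).

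Transcripts of 8 genes called higher were at 3 counts or fewer over the 3 dark libraries, and no gene called lower was that scarce in red light. PRR9, a clock repressor, had 0 counts in the dark and 4.41, 4.88 and 5.62 CPM in red light (edgeR adjusted p = 1.89e-06), at least 19.99-fold higher, taking 3 counts over the dark group as its limit. AT2G15020, of unknown function, also had 0 counts in the dark and stood at 2.45, 2.98 and 5.39 CPM in red light (edgeR adjusted p = 9.93e-05), at least 14.7-fold higher by the same limit. FRO7, the ferric reductase of chloroplasts, went from 0.193, 0 and 0.626 to 4.66, 4.61 and 3.82 CPM (edgeR adjusted p = 2.37e-05). All 3 were above the dark libraries in each red light library. MYB102 went from 0.193, 0.276 and 0 to 4.41, 2.98 and 1.35 CPM, and COR15A, a cold-regulated chloroplast protein, from 0, 0.276 and 0.313 to 4.17, 2.71 and 0.674 CPM, with 1 red light library close to the detection limit. COR15A was not called without wild type red replicate 1. The other 3 were AT4G35660, the trichome regulator GIS and the TIR-NBS-LRR gene AT5G58120.

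Markers of cell types that whole seedlings hold were counted in the same way. By edgeR 0 of 15 root hair markers were called (2 lower at an unadjusted p under 0.05), 0 of 10 xylem markers (0 unadjusted) and 0 of 7 seed storage markers (0 unadjusted), and DESeq2 called 0 of each. The summed level ran from 126 to 191 CPM in the dark and 128 to 143 CPM in red light for the root hair list, from 297 to 324 and 317 to 325 CPM for xylem, and from 10.8 to 37.8 and 18.0 to 26.6 CPM for seed storage. With edgeR 1 of 10 endodermis markers rose (SCR), 1 of 8 phloem markers rose (APL), 1 of 14 guard cell markers fell (MYB60), 1 of 5 shoot meristem markers rose (KNAT1) and 1 fell (CLV1), and 3 of 8 epidermis markers rose (37.5%). The calls of SCR, MYB60 and CLV1 were lost under 7 to 11 alternatives, DESeq2 and most fits with a library left out among them. A second endodermis marker rose with no filter on low counts and with only the wild type libraries. A root hair marker fell with no filter, without wild type dark replicate 1 and with both dark libraries that stand apart left out. The summed endodermis list did not overlap between the groups, at 939 to 964 CPM in the dark and 1018 to 1112 CPM in red light. The sums overlapped for phloem (148 to 173 and 159 to 188 CPM), guard cell (188.5 to 213 and 188.5 to 198 CPM) and shoot meristem markers (117 to 125 and 120.0 to 127 CPM). The epidermis calls were KCS6 (0.53 ± 0.09), ABCG12 (0.47 ± 0.08) and LP1 (0.21 ± 0.07), of which the first 2 are also genes of the wax list above. The summed epidermis list did not overlap either, at 1290 to 1468 CPM in the dark and 1535 to 1644 CPM in red light. Whether the endodermis and epidermis gaps remain without the normalization factors was not tested. The part of these markers in the wax and other results was not tested.

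Wild type and double mutant responses to the light were also set against each other. Their difference was called for 0 of the 325 named genes with edgeR (25 at an unadjusted p under 0.05) and for 0 with DESeq2 (16 unadjusted). This does not show that the responses are alike. A wild type log2 change alone carried an SE of 0.17 at the median, and the difference between the genotypes' responses carries a larger one.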

How the data were processed

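Whole-number counts per gene and library were deposited by the authors, from 3′ tag libraries of total RNA per the labels. FastQC, HISAT2, HTSeq, edgeR and the build TAIR10 are named in the submitters' processing notes, with no versions or settings. The table holds 33655 genes. Of these 32548 have locus identifiers, all matched to RefSeq TAIR10.1 for names, positions and sequences. The 5 HTSeq summary lines were left out. Reads that HTSeq could not give to a single gene amounted to 0.943 to 1.26% of counts in the wild type.

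All 12 libraries entered an edgeR 4.0.16 fit (R 4.3.3; TMM factors, filterByExpr with a minimum count of 10, 1 term per group, quasi-likelihood test, Benjamini-Hochberg adjusted p under 0.05 over 18487 genes), with wild type red light minus dark as the contrast. SE is the log2 change divided by the square root of F. Between replicates the biological coefficient of variation was 0.0875.

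Alternatives were DESeq2 1.42.0, limma-voom (limma 3.58.1), RLE factors, testing unfiltered genes, keeping genes with a mean of 5 CPM or more, wild type libraries alone, the replicate number as a block, and each wild type library left out. Leaving out the 2 dark libraries that stand apart (wild type dark replicate 1 and double mutant dark replicate 3) was chosen after seeing the data. Tables and plots used python 3.11.15, pandas 2.3.3, numpy 2.4.6 and matplotlib 3.10.9.

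Members and the 79 gene lists, made from symbols and product names, were chosen with earlier results of these data known. Lists are therefore described by counts and medians, with no test of their own. Named genes are up to 25 largest rises and 25 largest falls (mean log2 CPM of at least 3, no overlap), up to 4 called members of each list with the smallest p, up to 10 with the largest gain and 10 with the largest loss in CPM, up to 10 with at most 3 counts in the dark and up to 6 non-coding genes. For the largest rises and falls, the lack of overlap between groups was thus part of the choice and is no result. List members were chosen by a call and a small p, which favour such a separation too. Where their libraries are said to lie apart, that describes the levels and is no separate support. Families counted in full and other list members were named after their values were seen, which favours families with many called members. Family counts are to be read against the 10.6% of all tested genes that rose and the 4.68% that fell.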

Additional observations from a re-analysis of the deposited data

How the results depend on the processing

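The counts of changed genes kept within 1.5 times under the 14 alternatives. Rises ran from 1609 (DESeq2) to 2227 (no filter on low counts) and falls from 598 (without wild type red replicate 3) to 891 (no filter), against 1954 and 865. With each wild type library left out in turn the rises were 1618 to 1865 and the falls 598 to 766. DESeq2 called 82.3% of the risen and 69.5% of the fallen genes, and limma-voom 98.2% and 95.4%. With the replicate number as a block 1850 genes rose and 801 fell. Same-numbered dark and red light libraries did not deviate together (r −0.133, −0.157 and −0.00546 across genes, which are not independent replicates), so the numbers were not taken as pairs. The difference between the genotypes' red light responses was called for 1 of the 325 named genes without the filter on low counts (28 of all genes) and for 0 under the other alternatives; the cause was not tested. Of 4526 checks of named genes 182 lost the call and 0 reversed, over 37 of the 325 genes, among them AUX1, SIM, ICK1, LP1, EDS1, MAF3, AGL16, BT5, MYB60, SCR, CLV1 and the WRKY genes 6, 22 and 50. At the detection limit depth sets what can be said: a rise from 0 counts is a lower bound, and genes below the filter were not tested.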

Other observations

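Some changed genes fit none of the families above. AT3G52740, a small protein of unknown function, went from 1.73, 4.41 and 3.76 CPM in the dark to 36.0, 37.9 and 39.8 CPM in red light (log2 3.60 ± 0.21 SE, edgeR adjusted p = 8.28e-12). CPT4, a cis-prenyltransferase gene (AT5G58770), rose from 1.35, 0 and 1.25 to 15.9, 15.7 and 20.5 CPM (log2 4.21 ± 0.41 SE, edgeR adjusted p = 3.91e-08). AT1G07400, a small heat shock protein gene, rose from 1.93, 0.552 and 2.19 to 26, 25.2 and 22.7 CPM (log2 3.94 ± 0.26 SE, edgeR adjusted p = 5.90e-11). All 3 were low in every dark library and higher in every red light library. Among the fallers, AT3G43850 and AT1G67910, both of unknown function, went down by 2.01 and 1.43 on the log2 scale, the latter from 597, 470.2 and 485 to 189, 197 and 193 CPM. KAC1, a kinesin-like protein that positions chloroplasts on actin, rose from 14.4, 21.5 and 13.5 to 39.0, 35.8 and 38.9 CPM (log2 1.21 ± 0.17 SE, edgeR adjusted p = 1.09e-05). Of 27 kinesin genes 1 rose and 1 fell (3.70% each, against 10.6% and 4.68% of all genes), the fall being lost under 8 alternatives.

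Of 16 trehalose genes 4 rose and 3 fell (25.0% and 18.8%, against 10.6% and 4.68% of all genes). The rises became 2 with DESeq2 and without wild type dark replicate 1 or any red replicate, and the falls became 1 without dark replicate 1 or 3 and 0 without red replicate 2 or 3. TPS1, which makes the signal sugar trehalose 6-phosphate, rose by 0.89 ± 0.21. KEA3, the thylakoid antiporter that relaxes photoprotection, rose from 21.6, 26.8 and 26.9 to 41.6, 49.6 and 49.5 CPM (log2 0.92 ± 0.12 SE, edgeR adjusted p = 4.91e-06). It was 1 of 4 risers among 39 potassium transport genes (10.3%, near the share of all genes), of which 0 fell, or 1 under 1 alternative. The iron-linked bHLH34 rose from 4.24, 3.03 and 2.82 to 13.7, 13 and 17.8 CPM (log2 2.09 ± 0.25 SE, edgeR adjusted p = 8.93e-07).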
